A study of Mus musculus with 12 samples.

Results

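The genes described here make, lengthen, desaturate and activate fatty acids and join them into phospholipids and triglycerides. The set of 33 mouse genes was named by pathway membership, with earlier results of these data known, and 30 of them were measured, out of 22180 genes in all. Each gene was read from its probe set with the highest mean signal. Scd2 and Acsl3 appeared on probe sets that also carry another gene's symbol (Mir5114 and Utp14b), and Acsl1 had no probe set under its symbol in the annotation used, so no value is given for these 3. By role the 30 were 4 genes of fatty acid synthesis, 5 of elongation, 4 of desaturation, 2 of activation, 10 of acyl transfer, 2 phosphatidate phosphatases and 3 of phospholipid head group supply.

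The arrays came from cultured mouse keratinocytes, the cells that build the epidermis, kept in KGM-2 medium. In every culture the Atg7 alleles were floxed, that is, flanked by sites that Cre recombinase cuts. KO cells carried Cre under the promoter of keratin K14, active in basal keratinocytes, and wt cells carried the same floxed alleles without Cre. The groups were KO given 20 µM paraquat, KO sham treated, wt given 20 µM paraquat and wt sham treated, with RNA taken 48 h after treatment and 3 arrays in each group. Paraquat is a herbicide that accepts electrons in the cell and passes them to oxygen, and Atg7 encodes an enzyme required to build autophagosomes. The comparisons ask what paraquat does in each genotype, what the Atg7 deletion does in each treatment, and whether the response to paraquat differs with genotype. The design calls the samples biological triplicates, but the labels tie no array to an animal, so p-values measure only the spread between these samples.

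Fatty acids are made in the cytosol from citrate: ATP citrate lyase yields acetyl-CoA, acetyl-CoA carboxylase turns it into malonyl-CoA, and fatty acid synthase builds palmitate. Elongases and desaturases then lengthen the chain and add double bonds, acyl-CoA synthetases activate it, and acyltransferases place it on a glycerol backbone, from which lipins and head group enzymes lead to triglycerides and phospholipids. In the epidermis this pathway supplies membrane lipids and the fatty acids of the barrier lipids, and many of its synthesis and desaturation genes are textbook targets of the transcription factor SREBP-1.

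Values are RMA signals on a linear scale as deposited, and changes are differences of log2 signal with their standard error (SE, n = 3 arrays per group). A gene is said to have risen or fallen where limma's moderated test gave an adjusted p under 0.05 over the 22180 genes. Levels of different genes are not compared, because probe sets differ in brightness. Array medians lay between 42 and 45, and correlations between arrays of 1 group were at least 0.988. The array wt sham 2 stood apart from the other wt sham arrays on the second principal component (-31.4, against -11.4 and -20.4). Atg7 had signals of 129, 148 and 96 in KO paraquat, 105, 111 and 103 in KO sham, 442, 442 and 457 in wt paraquat, and 293, 356 and 286 in wt sham arrays, so each KO array lay below each wt array. The keratinocyte keratin Krt14 had signals of 8933 to 11102 in the 12 arrays. Acacb and Elovl3 had mean signals under 45, the highest array median, and whether they exceeded background was not measured.

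Paraquat changed the set in both directions in both genotypes. In KO cells 9 of the 30 genes rose and 11 fell, against 27.1% of all genes changed in either direction (14.5% higher, 12.6% lower). In wt cells 11 rose and 9 fell, against 29.2% of all genes (14.9% higher, 14.3% lower). The shares of all genes were taken without a filter on dim genes, whereas of the 30 only Acacb and Elovl3 were under the highest array median. The part of brightness in this contrast was not tested. The median log2 change of the 30 was -0.01 in KO and -0.10 in wt, beside 0.01 for all genes in each genotype. In both genotypes 8 genes rose and 8 fell, 16 in all, against 19.3% of all genes called in the same direction in both. These 16 were the rising Elovl1, Agpat2, Lpcat3, Lpcat4, Dgat2, Lpin1, Lpin2 and Pcyt1a, and the falling Elovl5, Scd1, Fads1, Acsl4, Acsl5, Gpam, Lpcat1 and Lpcat2. Elovl6 alone passed the threshold in opposite directions.

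The genotypes were compared in each treatment. In sham cultures 7 of the 30 genes were higher in KO (Acly, Acaca, Fasn, Elovl6, Scd1, Fads2 and Lpin1) and 4 were lower (Elovl7, Fads3, Lpcat2 and Dgat2), against 10.2% of all genes (4.58% higher, 5.67% lower). Under paraquat 0 were higher in limma and 1, Lpin2, was lower, against 0.55% of all genes (0.0992% higher, 0.451% lower). At an unadjusted p under 0.05 in limma, 3 of the 30 were higher and 3 lower, against 1027 and 1421 of the 22180 genes. The response itself differed in 4 genes, with Fads3 more positive and Acly, Elovl6 and Lpin2 more negative in KO, against 2.29% of all genes (1.39% more positive, 0.897% more negative). The wt response and the sham comparison of genotypes both use the wt sham arrays, and wt sham 2 was the wt sham array farthest from the KO sham arrays in 8 of the 11 genes that differed. Leaving it out gave 9 genes in place of 11, and 1418 in place of 2273 of all genes.

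**Figure D1:**
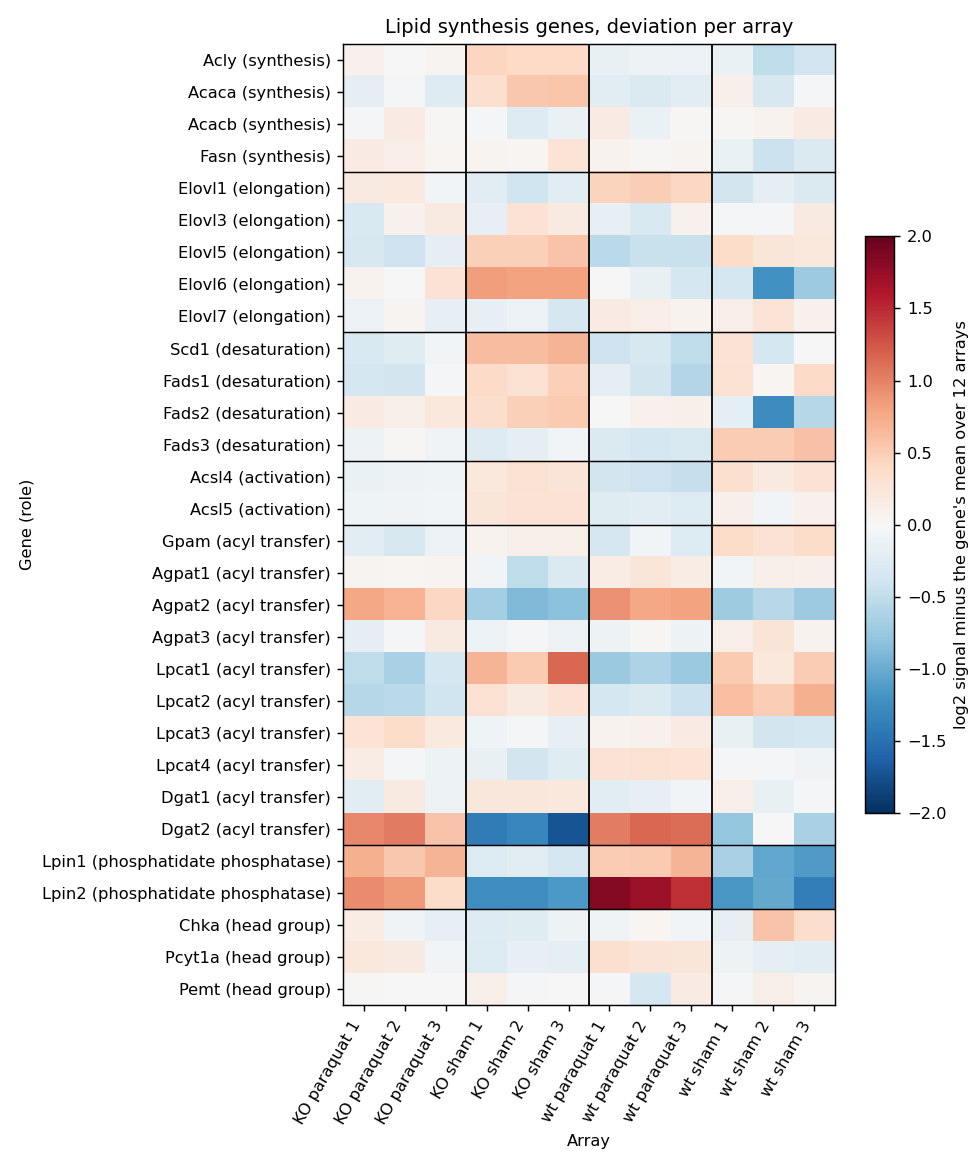
Deviation of each gene's log2 signal from its mean over the 12 arrays (colour, log2 units), for the 30 measured genes (rows, by role) and the 12 arrays (columns, by group). Lpin1, Lpin2, Agpat2 and Dgat2 were above their means in all paraquat arrays, and wt sham 2 had the lowest signals of Elovl6 (295) and Fads2 (494).

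In fatty acid synthesis, KO sham cells had the highest mean signals of Acly, Acaca and Fasn among the groups, and paraquat brought Acly and Acaca down in KO cells. Acly, the citrate lyase, had signals of 1371, 1299 and 1330 in KO paraquat, 1734, 1701 and 1697 in KO sham, 1160, 1194 and 1180 in wt paraquat, and 1178, 905 and 984 in wt sham arrays. The KO sham arrays did not overlap those of any other group, while the paraquat and sham arrays of wt did overlap. Acaca, the carboxylase that makes malonyl-CoA for synthesis, had signals of 298, 329 and 282 in KO paraquat, 426, 488 and 496 in KO sham, 292, 275 and 287 in wt paraquat, and 361, 270 and 331 in wt sham arrays. Fasn, the synthase, had signals of 1450, 1416 and 1334 in KO paraquat, 1344, 1331 and 1572 in KO sham, 1362, 1312 and 1339 in wt paraquat, and 1187, 962 and 1057 in wt sham arrays. For Fasn, the wt sham arrays were the lowest and the other groups overlapped.

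In sham cultures Acly was higher in KO by log2 0.75 ± 0.09 (SE, 1.68-fold, adjusted p = 0.000285 in limma), Acaca by 0.56 ± 0.11 (0.00557) and Fasn by 0.41 ± 0.09 (0.0151). Under paraquat the same differences were 0.18, 0.09 and 0.06, none past the threshold. Paraquat lowered Acly in KO by log2 -0.36 ± 0.09 (adjusted p = 0.00923), whereas its change in wt was 0.21 ± 0.09 (0.105), and 0.32 without wt sham 1, past the threshold (0.00947). The difference between these responses was -0.57 ± 0.13 (adjusted p = 0.0378). Acaca fell in KO by log2 -0.63 ± 0.11 (0.00065) and changed by -0.16 ± 0.11 in wt (0.329), but the difference between these responses, -0.47 ± 0.15, did not pass (0.148). Fasn rose in wt by log2 0.33 ± 0.09 (0.0173) and changed by -0.01 ± 0.09 in KO (0.957), with a difference between responses of -0.34 ± 0.13 (0.229). Acacb, the carboxylase isoform at the mitochondrial surface, had signals of 24 to 32 and passed no test.

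The Acly difference between responses passed the threshold in 8 of 21 alternatives and, of the fits that left out 1 array, only without wt sham 1. Fasn lost its call between genotypes in sham without wt sham 2 (0.33, adjusted p = 0.0657), without KO sham 3 (0.33, 0.0612) and in a fit of the 6 arrays compared (0.0938), as did Acaca in that last fit (0.0546), and the rise of Fasn in wt was lost without wt sham 2 (0.26, 0.0695) or wt paraquat 1 (0.32, 0.0537).

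Among the elongases, Elovl1 rose and Elovl5 fell with paraquat in both genotypes, while Elovl6 moved in opposite directions. Elovl6, which extends palmitate to stearate, had signals of 717, 682 and 832 in KO paraquat, 1217, 1184 and 1185 in KO sham, 679, 617 and 532 in wt paraquat, and 531, 295 and 410 in wt sham arrays. All 4 groups were separate in their arrays, in the order KO sham, KO paraquat, wt paraquat, wt sham. Elovl6 was 2.98-fold higher in KO than in wt sham cells (log2 1.58 ± 0.17, SE, adjusted p = 0.000127 in limma), the largest of the 11 differences between genotypes in sham. Paraquat changed it by log2 -0.69 ± 0.17 in KO (adjusted p = 0.00724) and by 0.60 ± 0.17 in wt (0.0154). Under paraquat KO exceeded wt by 0.29 ± 0.17 (0.574). The difference between responses was -1.29 ± 0.24 (adjusted p = 0.0143) and passed the threshold in all 21 alternatives. The rise in wt did not pass without wt sham 2 (0.38, 0.0538), without wt paraquat 1 (0.52, 0.0667) or in the fit of the 6 arrays compared (0.60, 0.0821).

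Elovl1, an elongase of saturated very long chains used in barrier lipids, had signals of 1069, 1078 and 913 in KO paraquat, 813, 718 and 811 in KO sham, 1286, 1331 and 1258 in wt paraquat, and 736, 837 and 777 in wt sham arrays. The paraquat arrays lay above the sham arrays in each genotype, by log2 0.38 ± 0.09 in KO (adjusted p = 0.00593) and 0.72 ± 0.09 in wt (3.66e-05). The responses differed by -0.34 ± 0.13 (0.21). Elovl5, which extends polyunsaturated chains, had signals of 494, 464 and 546 in KO paraquat, 855, 860 and 919 in KO sham, 427, 453 and 453 in wt paraquat, and 797, 732 and 711 in wt sham arrays. It fell by log2 -0.81 ± 0.08 in KO (9.88e-06) and -0.75 ± 0.08 in wt (1.33e-05), and the interval of the difference between responses ran from -0.32 to 0.19. Elovl7, another elongase of long chains, had signals of 521, 586 and 506 in KO paraquat, 507, 522 and 448 in KO sham, 634, 617 and 591 in wt paraquat, and 619, 680 and 600 in wt sham arrays. It was lower in KO sham than in wt sham cells by log2 -0.36 ± 0.09 (0.0209), a call lost without wt sham 2 (-0.31, 0.0833), without KO sham 3 (-0.30, 0.0813) and in the fit of the 6 arrays compared (0.0839). Elovl3 had signals of 10 to 15 and passed no test.

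Of the 4 measured desaturases, Scd1 and Fads1 fell with paraquat in both genotypes, Fads3 fell in wt and Fads2 rose in wt. Fads3, a relative of the front-end desaturases, had signals of 2204, 2394 and 2246 in KO paraquat, 1991, 2072 and 2285 in KO sham, 1937, 1846 and 1924 in wt paraquat, and 3363, 3384 and 3556 in wt sham arrays. The wt sham arrays stood above all others. Fads3 fell in wt by log2 -0.85 ± 0.08 (SE, adjusted p = 2.1e-06 in limma) and changed by 0.11 ± 0.08 in KO (0.355). Its sham level was 1.63-fold lower in KO cells (log2 -0.70 ± 0.08, 0.000163), and under paraquat KO exceeded wt by 0.26 ± 0.08 (0.193). The difference between responses was 0.96 ± 0.11 (adjusted p = 0.00069), past the threshold in all 21 alternatives.

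Fads2, the first desaturase of polyunsaturated fatty acid synthesis, had signals of 1320, 1289 and 1368 in KO paraquat, 1513, 1641 and 1702 in KO sham, 1182, 1257 and 1264 in wt paraquat, and 1038, 494 and 801 in wt sham arrays. The KO sham arrays were the highest and the wt sham arrays the lowest and most scattered. In sham cultures Fads2 was 2.17-fold higher in KO (log2 1.12 ± 0.19, adjusted p = 0.0023). It rose with paraquat in wt by log2 0.73 ± 0.19 (0.00944) and changed by -0.29 ± 0.19 in KO (0.317), and the difference of -1.02 ± 0.27 missed the threshold (0.0702). Without wt sham 2 the rise in wt was 0.44, the sham difference 0.83 and the difference between responses -0.72 (0.0314), which then passed, as did the fall in KO (-0.29, 0.0457). The difference between responses passed in 5 of 21 alternatives, the others being without wt sham 1 (-1.26, 0.00688) and 3 on all 12 arrays. These were the filter on dim genes (0.0347), the variance trend (0.0398) and array weights (0.0439). In fits of the 6 arrays compared, the rise in wt missed the threshold (0.0718) and the fall in KO passed (-0.29, 0.0311).

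Scd1, which puts the first double bond into stearate and palmitate, had signals of 788, 817 and 933 in KO paraquat, 1493, 1483 and 1559 in KO sham, 729, 778 and 683 in wt paraquat, and 1193, 765 and 961 in wt sham arrays. The KO sham arrays were the highest, and the paraquat and sham arrays of wt overlapped. Scd1 was higher in KO than wt sham cells by log2 0.66 ± 0.13 (adjusted p = 0.0065) and fell with paraquat by -0.84 ± 0.13 in KO (0.000311) and -0.39 ± 0.13 in wt (0.0393). The difference between these responses, -0.45 ± 0.19, did not pass (0.267). The fall in wt passed in 11 of 22 alternatives, and without wt sham 1 it was -0.23 (0.172). The KO sham difference missed the threshold in the fit of the 6 arrays compared (0.0601). Fads1, the second desaturase of polyunsaturated fatty acid synthesis, had signals of 178, 177 and 223 in KO paraquat, 297, 281 and 317 in KO sham, 199, 176 and 151 in wt paraquat, and 282, 235 and 296 in wt sham arrays. It fell by log2 -0.64 ± 0.13 in KO (0.00179) and -0.63 ± 0.13 in wt (0.00166), and the genotypes overlapped in each treatment.

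**Figure D2:**
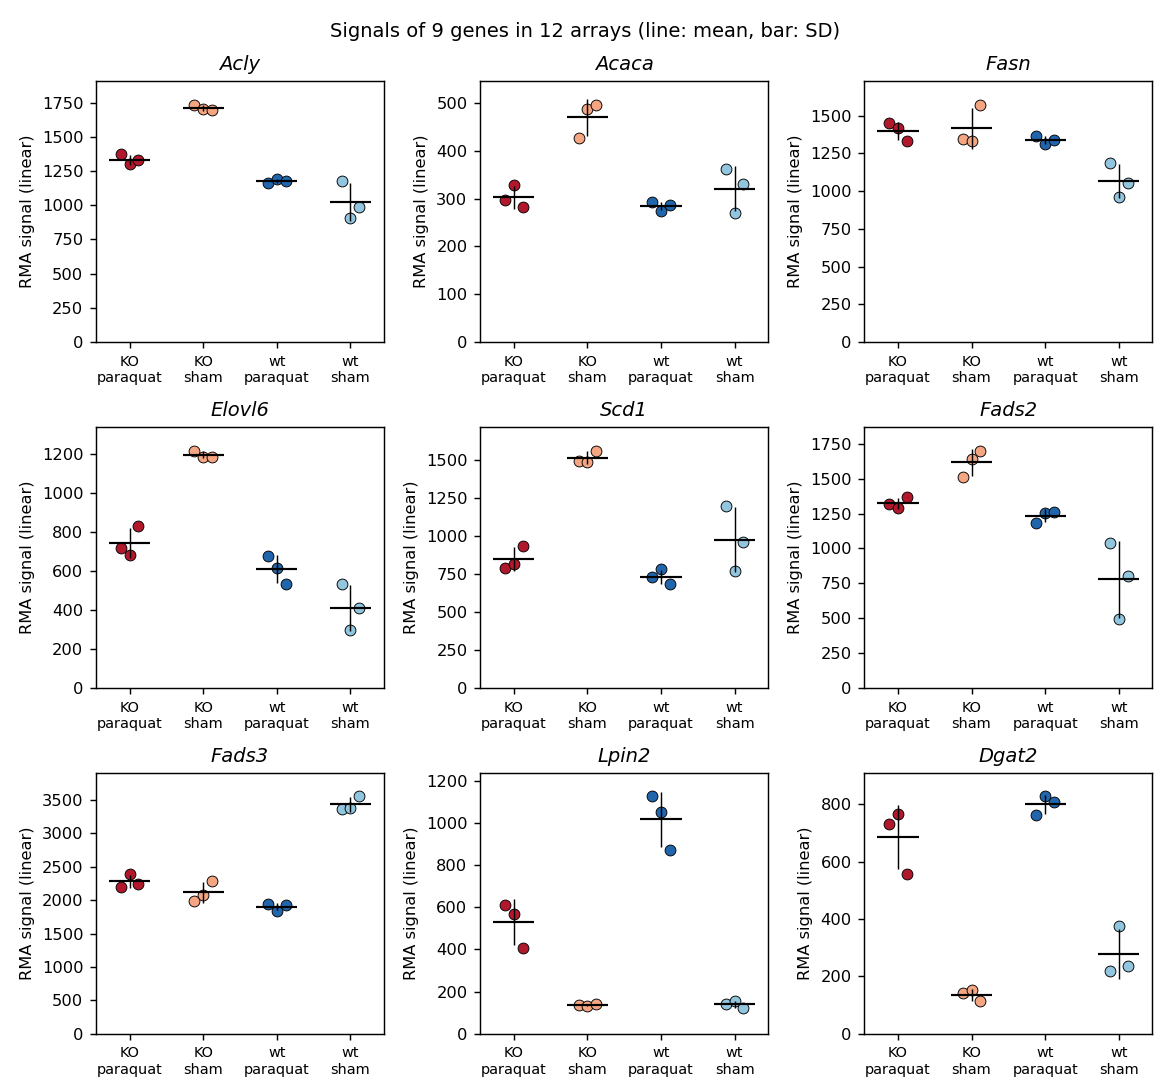
RMA signal (linear scale, from 0) of 9 genes in the 12 arrays, with the mean of each group (line) and its SD (bar). Acly, Elovl6, Scd1 and Fads2 have their highest arrays in KO sham, Fads3 has its highest in wt sham (3363 to 3556), and Lpin2 and Dgat2 have their highest in paraquat arrays.

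Fads3, Fads2 and Fads1 lie next to each other on chromosome 19 with 0 protein-coding genes between neighbours, yet in KO sham cells Fads2 was higher, Fads3 was lower and Fads1 differed by log2 0.14 ± 0.13 (adjusted p = 0.571 in limma). Promoter windows of 250 bases before to 50 after the annotated start (RefSeq, build GRCm38.p6) were found for 27 of the 33 genes, 36 windows in all. Both strands were searched for the CCAAT box (CCAAT), the GC box (GGGCGG), the sterol element (TCACNCCAC), the E-box (CACGTG), the antioxidant element (TGACNNNGC) and the amino acid response element (TGATGNAA). Of 32851 windows, 37.4% held a CCAAT box, 35.7% a GC box, 1.24% the sterol element, 7.15% the E-box, 12.4% the antioxidant element and 3.97% the amino acid response element, and of the 36 windows 16, 22, 3, 2, 4 and 2 held them in that order. Of the 3 windows with the sterol element, 2 are overlapping windows of Pcyt1a that share the same match, and 1 is of Acsl1, which was not measured. The 4 with the antioxidant element likewise include both of these Pcyt1a windows. The windows of Acly, Fasn and Fads2, which were higher in KO sham, and of Fads3, which was lower, are printed on their own strand with every motif found in capitals.
Acly, chr11:100527951-100528250, minus strand: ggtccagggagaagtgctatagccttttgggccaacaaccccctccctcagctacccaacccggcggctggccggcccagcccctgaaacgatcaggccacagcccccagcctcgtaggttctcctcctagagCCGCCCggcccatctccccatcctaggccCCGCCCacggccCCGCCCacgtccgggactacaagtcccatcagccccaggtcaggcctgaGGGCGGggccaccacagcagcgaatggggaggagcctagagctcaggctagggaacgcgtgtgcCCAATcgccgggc
Fasn, chr11:120824498-120824797, minus strand: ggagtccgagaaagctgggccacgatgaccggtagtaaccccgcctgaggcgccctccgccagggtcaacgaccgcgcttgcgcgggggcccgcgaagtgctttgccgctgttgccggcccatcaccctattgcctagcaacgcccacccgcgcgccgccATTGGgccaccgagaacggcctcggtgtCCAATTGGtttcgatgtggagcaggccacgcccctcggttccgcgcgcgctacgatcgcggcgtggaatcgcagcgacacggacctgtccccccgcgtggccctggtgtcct
Fads2, chr19:10101454-10101753, minus strand: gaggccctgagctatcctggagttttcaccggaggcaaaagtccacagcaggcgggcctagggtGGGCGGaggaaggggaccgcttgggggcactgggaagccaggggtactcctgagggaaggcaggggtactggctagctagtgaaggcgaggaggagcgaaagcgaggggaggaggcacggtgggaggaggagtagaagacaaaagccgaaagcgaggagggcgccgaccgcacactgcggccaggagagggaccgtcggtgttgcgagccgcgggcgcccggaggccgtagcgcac
Fads3, chr19:10041298-10041597, plus strand: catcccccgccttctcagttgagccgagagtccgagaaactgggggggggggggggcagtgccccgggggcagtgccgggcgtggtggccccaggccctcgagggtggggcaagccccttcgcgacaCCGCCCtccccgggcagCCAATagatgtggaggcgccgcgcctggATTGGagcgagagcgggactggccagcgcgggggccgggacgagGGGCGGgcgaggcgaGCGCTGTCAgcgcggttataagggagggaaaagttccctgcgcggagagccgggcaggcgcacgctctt
The Acly window held 1 CCAAT box and 4 GC boxes, and that of Fasn 3 CCAAT boxes, of which a pair on opposite strands overlap. The Fads2 window held 1 GC box, and that of Fads3 2 CCAAT boxes, 2 GC boxes and 1 antioxidant element. The windows of Elovl6, Acaca and Lpin1, also higher in KO sham, held 0 matches to these letters, and no window was found for Scd1, likewise higher. A match is a description of the letters in the window and not a measured site.

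Both measured acyl-CoA synthetases fell with paraquat in both genotypes. Acsl4, which prefers arachidonate and related polyunsaturated fatty acids, had signals of 421, 432 and 436 in KO paraquat, 534, 573 and 555 in KO sham, 360, 349 and 338 in wt paraquat, and 580, 525 and 565 in wt sham arrays. Acsl5, which activates long chain fatty acids, had signals of 753, 762 and 769 in KO paraquat, 943, 977 and 981 in KO sham, 679, 690 and 663 in wt paraquat, and 856, 770 and 853 in wt sham arrays. For both genes the paraquat arrays lay below the sham arrays of their genotype, and the KO paraquat arrays lay above the wt paraquat arrays. Acsl4 fell by log2 -0.37 ± 0.07 in KO (SE, adjusted p = 0.00189 in limma) and -0.67 ± 0.07 in wt (1.02e-05), and the difference of 0.31 ± 0.10 did not pass (0.16). Acsl5 fell by -0.34 ± 0.07 in KO (0.00263) and -0.29 ± 0.07 in wt (0.0082). KO minus wt under paraquat was 0.30 ± 0.07 for Acsl4 (0.101), which passed in 4 alternatives, the lowest at 0.0275.

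Acyl transfer held the widest spread of responses. Agpat2, which adds the second acyl chain to make phosphatidic acid, had signals of 574, 545 and 452 in KO paraquat, 211, 184 and 191 in KO sham, 634, 577 and 591 in wt paraquat, and 206, 230 and 204 in wt sham arrays. Dgat2, which completes triglycerides, had signals of 733, 766 and 557 in KO paraquat, 142, 151 and 113 in KO sham, 764, 828 and 810 in wt paraquat, and 220, 377 and 238 in wt sham arrays. Lpcat2, which reacylates lysophosphatidylcholine and can make platelet-activating factor, had signals of 138, 142 and 156 in KO paraquat, 253, 233 and 252 in KO sham, 161, 168 and 153 in wt paraquat, and 313, 288 and 336 in wt sham arrays. In all 3 genes the paraquat and sham arrays of a genotype were separate, and for Dgat2 and Lpcat2 the KO sham arrays also lay below those of wt sham.

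Agpat2 rose 2.67-fold in KO (log2 1.42 ± 0.10, SE, adjusted p = 4.58e-07 in limma) and 2.82-fold in wt (1.49 ± 0.10, 1.41e-07), and the interval of the difference ran from -0.38 to 0.23. Dgat2 rose 5.05-fold in KO (log2 2.34 ± 0.18, 1.15e-06) and 2.96-fold in wt (1.57 ± 0.18, 2.1e-05), a difference of 0.77 ± 0.26 that did not pass (0.161). In sham cultures Dgat2 was 2.01-fold lower in KO (log2 -1.01 ± 0.18, 0.00362), and -0.77 without wt sham 2. Lpcat2 fell by log2 -0.76 ± 0.09 in KO (2.01e-05) and -0.96 ± 0.09 in wt (1.72e-06). Its lower level in KO sham (-0.34 ± 0.09, 0.0219) did not pass without wt sham 3 (-0.29, 0.0898), without KO sham 2 (-0.30, 0.0831) or in the fit of the 6 arrays compared (0.0842).

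Of the other 7 acyltransferases, Lpcat3 and Lpcat4 rose and Lpcat1 and Gpam fell in both genotypes, and Agpat1 rose in KO. Lpcat1, a lysophosphatidylcholine acyltransferase that favours saturated chains, fell by log2 -1.28 ± 0.14 in KO (adjusted p = 1.78e-05 in limma) and -1.11 ± 0.14 in wt (4.49e-05). Lpcat3, which places polyunsaturated chains into phosphatidylcholine, rose by 0.38 ± 0.08 in KO (0.00387) and 0.39 ± 0.08 in wt (0.00277), with an interval of the difference from -0.27 to 0.25. Gpam, the mitochondrial enzyme that adds the first acyl chain to glycerol 3-phosphate, fell by -0.32 ± 0.09 in KO (0.0147) and -0.57 ± 0.09 in wt (0.000248). Lpcat4 rose by 0.26 ± 0.08 in KO (0.0353) and 0.33 ± 0.08 in wt (0.00947), and Agpat1 rose in KO (0.33 ± 0.10, 0.0281) and changed by 0.12 ± 0.10 in wt (0.452). The difference between the responses of Agpat1, 0.21 ± 0.15, did not pass (0.549). Agpat3 and Dgat1 did not pass in either genotype. Dgat1, which makes triglyceride from diacylglycerol, changed by -0.28 ± 0.11 in KO (0.0756), past the threshold without KO paraquat 2 (-0.39, 0.0138) and with the filter on dim genes (-0.28, 0.0419). In KO, the call of Agpat1 was lost without KO sham 2 (0.22, 0.124), KO sham 3, or any 1 of the KO paraquat arrays, that of Lpcat4 without KO sham 2 (0.21, 0.134), KO sham 3, KO paraquat 1 (0.19, 0.154) or KO paraquat 2, and that of Gpam without KO paraquat 2 (-0.28, 0.0679). The fit of the 6 arrays compared also ended the KO calls of Agpat1 (0.0831) and Lpcat4 (0.0945).

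The lipins turn phosphatidic acid into diacylglycerol, the branch point between triglycerides and phosphatidylcholine, and both rose in both genotypes. Lpin2 had signals of 611, 568 and 406 in KO paraquat, 134, 133 and 143 in KO sham, 1125, 1049 and 873 in wt paraquat, and 141, 155 and 121 in wt sham arrays. The sham arrays of the genotypes overlapped, and each KO paraquat array lay below each wt paraquat array. Lpin2 rose 3.81-fold in KO (log2 1.93 ± 0.15, SE, adjusted p = 9.08e-07 in limma) and 7.30-fold in wt (2.87 ± 0.15, 1.62e-08), the largest paraquat response of the 30 genes in wt. The difference between responses was -0.94 ± 0.21 (adjusted p = 0.0349), and under paraquat Lpin2 was 1.94-fold lower in KO (log2 -0.96 ± 0.15, 0.0123). A second Lpin2 probe set rose by 1.76 ± 0.22 in KO and 3.51 ± 0.22 in wt, with KO minus wt under paraquat of -1.09 ± 0.22 (adjusted p = 0.0491 over all probe sets) and a difference between responses of -1.75 ± 0.31 (0.0113). In sham, KO minus wt was 0.66 ± 0.22 for this second probe set (0.0799) and -0.02 ± 0.15 for the first (0.976). The lower level under paraquat did not pass without wt paraquat 1 (-0.88, 0.0883), without wt paraquat 2 (-0.93, 0.0695) or in the fit of the 6 arrays compared (0.118). The difference between responses passed in 13 of 21 alternatives and was lost without wt sham 3, KO sham 1, 2 or 3, wt paraquat 1 or 2, or KO paraquat 2 or 3, at adjusted p up to 0.0921.

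Lpin1 had signals of 631, 563 and 621 in KO paraquat, 321, 331 and 307 in KO sham, 552, 559 and 619 in wt paraquat, and 247, 189 and 177 in wt sham arrays. The paraquat arrays of the genotypes overlapped, and the KO sham arrays lay above those of wt sham. Lpin1 rose by log2 0.92 ± 0.11 in KO (SE, adjusted p = 4.19e-05 in limma) and 1.51 ± 0.11 in wt (3.62e-07). In sham cultures it was higher in KO by 0.66 ± 0.11 (0.0025). The difference between responses was -0.59 ± 0.16 (0.0784), and it passed in 4 of 21 alternatives. These were the fit without wt sham 1 (-0.74, 0.00702), the filter on dim genes (0.0385), 16 added before the log2 (0.0493) and the variance trend (0.0453).

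Of the 3 head group genes, Pcyt1a rose and the others did not pass. Pcyt1a, the rate-limiting enzyme of phosphatidylcholine synthesis from choline, had signals of 231, 226 and 193 in KO paraquat, 165, 178 and 174 in KO sham, 251, 238 and 237 in wt paraquat, and 186, 175 and 172 in wt sham arrays. Chka, the choline kinase that starts the same route, had signals of 542, 467 and 438 in KO paraquat, 411, 417 and 456 in KO sham, 470, 505 and 473 in wt paraquat, and 439, 731 and 627 in wt sham arrays. Pemt, which methylates phosphatidylethanolamine to phosphatidylcholine, had signals of 82, 80 and 80 in KO paraquat, 87, 79 and 80 in KO sham, 79, 63 and 90 in wt paraquat, and 78, 87 and 84 in wt sham arrays. The paraquat arrays of Pcyt1a lay above its sham arrays, the wt sham arrays of Chka were scattered, and all groups of Pemt overlapped. Pcyt1a rose by log2 0.33 ± 0.08 in KO (SE, adjusted p = 0.0106 in limma) and 0.45 ± 0.08 in wt (0.00111), and the KO call was lost without KO paraquat 1 (0.28, 0.0527). Chka changed by 0.17 ± 0.15 in KO (0.479) and -0.28 ± 0.15 in wt (0.202). Without wt sham 1 Chka passed in the wt response (-0.49, 0.00535), between genotypes in sham (-0.66, 0.0024) and in the difference between responses (0.66, 0.0336). A second, dim Chka probe set (mean signal 32.3) changed by 0.03 ± 0.14 in KO and 0.04 ± 0.14 in wt with every array kept. Its KO minus wt in sham was -0.05 ± 0.14.

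**Figure D3:**
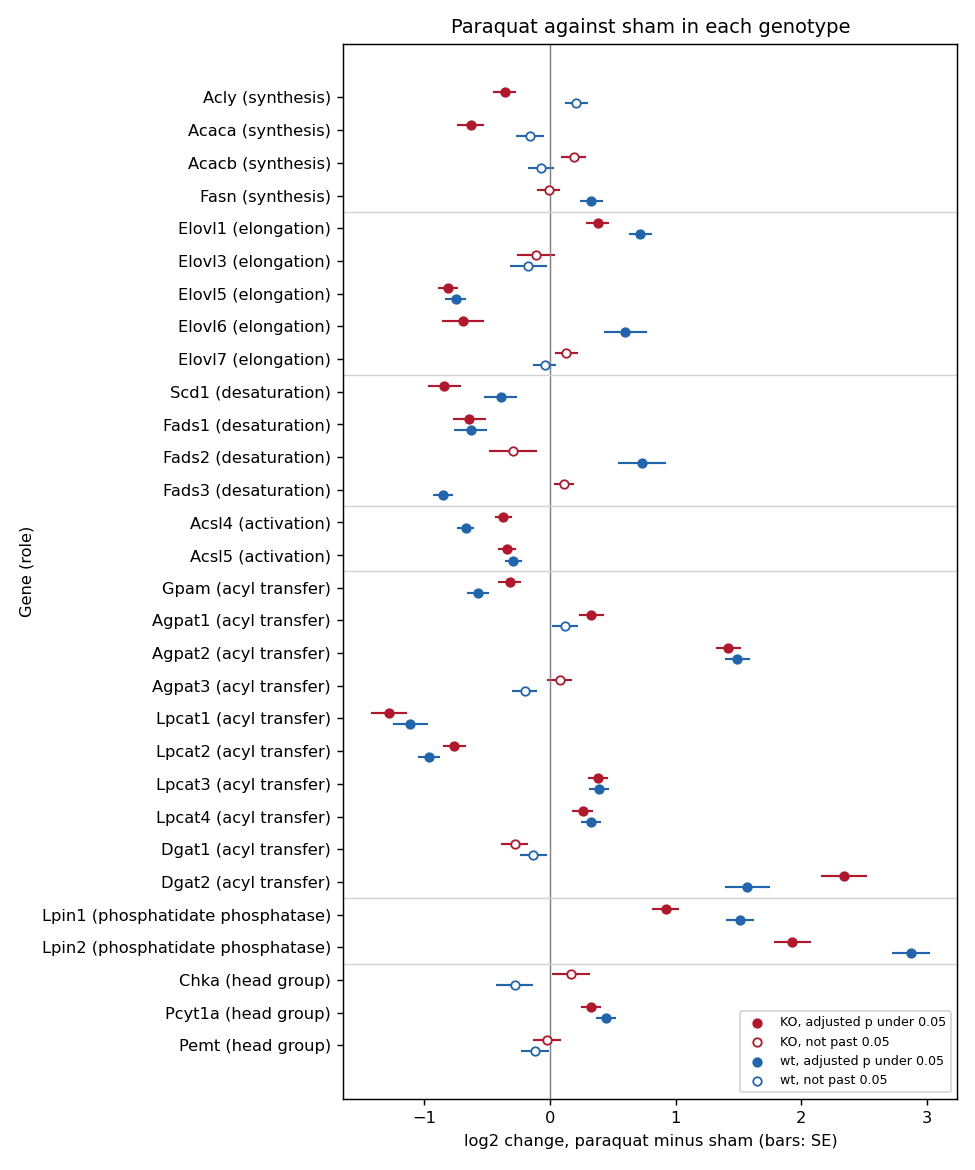
Log2 change of each of the 30 genes, paraquat minus sham, in KO (red) and wt (blue), with bars for the SE and filled points for adjusted p under 0.05. Lpin2 is farthest right in wt (2.87), Dgat2 in KO (2.34), and the points of Elovl6 lie on opposite sides of 0 (-0.69 in KO, 0.60 in wt).

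**Figure D4:**
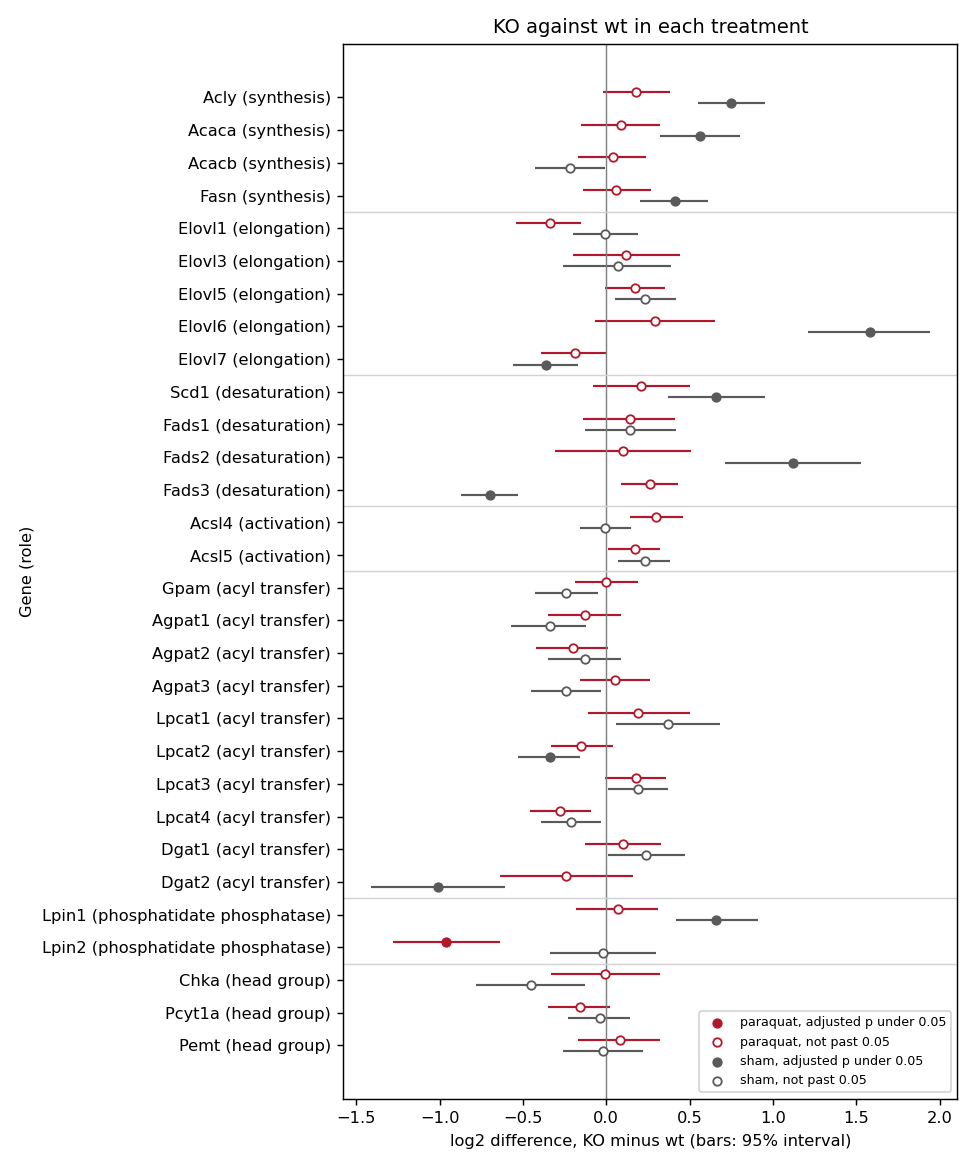
Log2 difference KO minus wt of each of the 30 genes, under paraquat (red) and in sham (grey), with bars for the 95% interval and filled points for adjusted p under 0.05. In sham 11 points are filled, from Dgat2 (-1.01) to Elovl6 (1.58), and under paraquat only that of Lpin2 (-0.96).

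The counts by role put the responses side by side, with 27.1% of all genes called in KO and 29.2% in wt. Of the 4 synthesis genes, 2 fell in KO (Acly and Acaca) and 1 rose in wt (Fasn). Of the 4 desaturases, 2 fell in KO, and 1 rose and 3 fell in wt. Elongation had 1 rise and 2 falls of 5 in KO, and 2 rises and 1 fall in wt. Activation had 2 falls of 2 in each genotype, the lipins 2 rises of 2, and head group supply 1 rise of 3. The shares called in synthesis in wt (25%) and in head group supply in either genotype (33.3%) were near those of all genes. Acyl transfer had 5 rises and 3 falls of 10 in KO, and 4 rises and 3 falls in wt. In sham cultures 3 of 4 synthesis genes and 2 of 4 desaturases were higher in KO, and 2 of 10 acyltransferases were lower, against 4.58% of all genes higher and 5.67% lower. No test was made between roles, and Scd2, Acsl1 and Acsl3 are missing from the desaturation and activation counts.

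**Figure D5:**
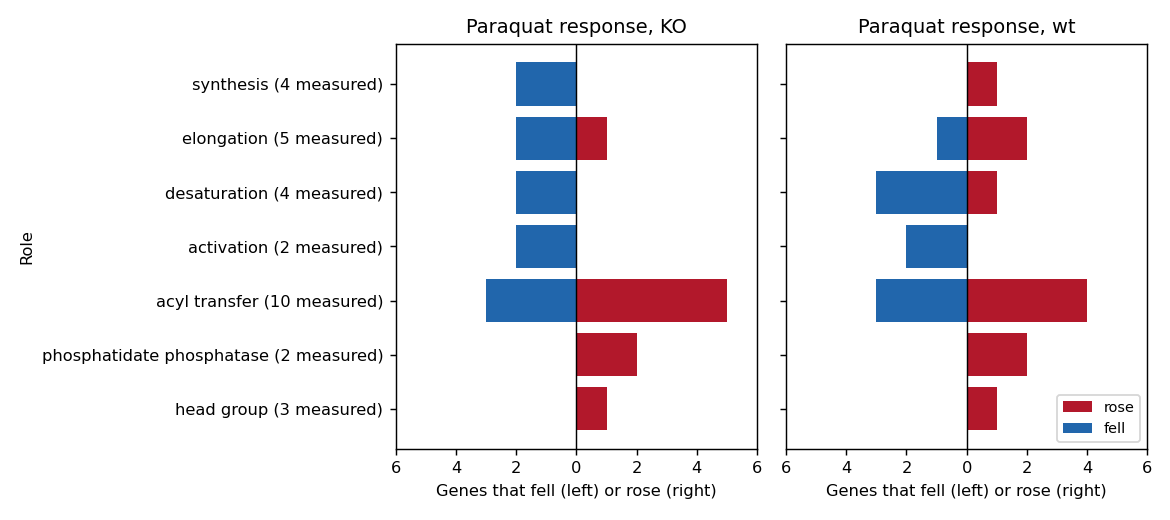
Number of genes past the threshold in each role, fallen to the left of 0 and risen to the right, for the paraquat response in KO (left panel) and in wt (right panel). Activation has falls alone and the lipins rises alone in both panels, and in synthesis KO has 2 falls where wt has 1 rise.

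Genes of the same pathways outside the set were described from a list of 93, of which 87 were measured. In KO 29 of the 87 rose and 19 fell with paraquat (55.2%, against 27.1% of all genes), and in wt 31 rose and 15 fell (52.9%, against 29.2%). Of the 87, 22 rose and 12 fell in both genotypes, against 19.3% of all genes called in the same direction in both. No gene of the list passed in opposite directions. In sham cultures 9 were higher and 11 lower in KO (23%, against 10.2% of all genes). At an unadjusted p under 0.05 in limma, 6 were higher and 11 lower in KO under paraquat, against 1027 and 1421 of the 22180 genes. After adjustment 0 were higher under paraquat and 1 was lower (1.15%, against 0.55% of all genes). That gene, Agpat4, a lysophosphatidic acid acyltransferase, had signals of 108, 91 and 107 in KO paraquat, against 188, 200 and 181 in wt paraquat (log2 -0.90 ± 0.10, SE, adjusted p = 0.00186, and 0.0564 in the fit of the 6 arrays compared).

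Among the regulators, Srebf1, which encodes SREBP-1, fell in both genotypes, by log2 -0.55 ± 0.09 in KO (adjusted p = 0.000452 in limma) and -0.40 ± 0.09 in wt (0.00433), with KO minus wt in sham of 0.12 ± 0.09 (0.487). Ppard, a nuclear receptor that fatty acids bind, rose by 1.26 ± 0.08 in KO and 0.80 ± 0.08 in wt, and Mlx, the partner of the ChREBP factor, by 0.60 ± 0.13 and 0.87 ± 0.13 in that order. Acss2, which makes acetyl-CoA from acetate, had signals of 137, 144 and 147 in KO paraquat, 151, 172 and 154 in KO sham, 172, 140 and 125 in wt paraquat, and 88, 60 and 67 in wt sham arrays. The wt sham arrays of Acss2 were below all others. It was higher in KO sham by log2 1.17 ± 0.14 (0.000256), and the responses differed by -1.18 ± 0.20 (0.00785). The responses differed in 6 of the 87 measured genes of the list (6.9%, against 2.29% of all genes). Gpat3 was more positive in KO (0.68 ± 0.16, 0.0434) and Acss2, Abhd5, Acadm, Insig1 and Mboat2 were more negative. Insig1, which retains the SREBP complex in the endoplasmic reticulum, and Mboat2 were named after their values were seen (-0.72 ± 0.17 and -0.97 ± 0.23). Insig1 had signals of 1526, 1371 and 1369 in KO sham, against 918, 657 and 666 in wt sham arrays. Of 14 measured regulators, 1 was higher and 1 lower in KO sham (14.3%, against 10.2% of all genes). Of the 12 fits that left out 1 array, the difference passed in 12 for Acss2, 4 for Abhd5, 2 for Gpat3 and Mboat2, and 1 for Acadm and Insig1. With the mean over its probe sets, the difference of Gpat3 was 0.39 (0.304).

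Partners of the elongases moved in both directions. Elovl4, the elongase of the longest epidermal fatty acids, rose by log2 1.77 ± 0.20 in KO (adjusted p = 2.18e-05 in limma) and 1.50 ± 0.20 in wt (6.43e-05). Tecr, the last reductase of the elongation cycle, fell by -0.91 ± 0.10 in KO (1.6e-05) and -1.19 ± 0.10 in wt (9.49e-07), and Hacd1, a dehydratase of that cycle, by -0.89 ± 0.13 and -0.57 ± 0.13. Of 11 measured genes of fatty acid uptake and activation, 3 rose and 2 fell in KO (45.5%, against 27.1% of all genes). In wt 6 rose and 2 fell (72.7%, against 29.2%). The fatty acid binding protein gene Fabp5 fell by -0.68 ± 0.09 in KO and -0.71 ± 0.09 in wt. Mean signals of Acsbg1 were 343 in KO paraquat, against 178 in KO sham, and 413 in wt paraquat, against 200 in wt sham. Lpin3, the remaining lipin, rose by 0.84 ± 0.09 in KO and 0.76 ± 0.09 in wt, and Etnk1, an ethanolamine kinase, by 0.67 ± 0.09 and 0.89 ± 0.09. Of 13 measured head group genes of the list, 1 rose and 5 fell in KO (46.2%, against 27.1% of all genes). In wt 2 rose and 4 fell (46.2%, against 29.2%). Cdipt had mean signals of 1182 in KO paraquat, against 1449 in KO sham, and 1185 in wt paraquat, against 1629 in wt sham.

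Markers of other cells also moved with paraquat. In bulk samples, fewer cells of a type and less RNA per cell cannot be told apart. The summed signal of 9 measured sebocyte markers was 540 to 572 in KO paraquat, against 354 to 407 in KO sham, and 674 to 806 in wt paraquat, against 396 to 546 in wt sham arrays. Cidea held most of that difference. Mc5r also rose in wt (31, 29 and 33 in wt paraquat, against 23, 25 and 22 in wt sham), and Krt79 fell in both genotypes (42, 45 and 51 in KO paraquat, against 109, 69 and 96 in KO sham, and 41, 45 and 48 in wt paraquat, against 106, 122 and 93 in wt sham), while Awat1, Awat2, Mc5r and Pparg stayed at or below 33. The sum of 7 adipocyte markers was lower, at 284 to 307 in KO paraquat, against 431 to 581 in KO sham, and 328 to 392 in wt paraquat, against 621 to 738 in wt sham arrays. Lpl held most of that difference. Its mean signals were 116 in KO paraquat, against 326 in KO sham, and 140 in wt paraquat, against 489 in wt sham. Lpl fell and Fabp4 rose in both genotypes (Fabp4 at 19, 20 and 30 in KO paraquat, against 17, 10 and 9 in KO sham, and 48, 43 and 27 in wt paraquat, against 10, 8 and 10 in wt sham), while Adipoq stayed at or below 15. Sums of 6 melanocyte markers (594 to 712 in KO paraquat, against 269 to 290 in KO sham, and 641 to 674 in wt paraquat, against 215 to 303 in wt sham) were higher. Of these markers Mlana and Dct rose in both genotypes, Tyrp1 in KO and Pmel in wt, and Mlana had the largest difference in signal. Sums of 5 leukocyte markers (1328 to 1604 against 710 to 797 in KO, and 1907 to 1998 against 680 to 734 in wt, paraquat against sham) were higher. Cd68 held most of that difference. Its mean signals were 1346 in KO paraquat, against 650 in KO sham, and 1825 in wt paraquat, against 587 in wt sham. Cd68 rose in both genotypes and Lyz2 fell in KO (12, 13 and 13 in KO paraquat, against 18, 17 and 16 in KO sham), with Ptprc at or below 21. Sums of 6 endothelial markers (362 to 404 against 251 to 263 in KO, and 440 to 502 against 227 to 255 in wt, paraquat against sham) were higher. Kdr held most of that difference. Its mean signals were 149 in KO paraquat, against 58 in KO sham, and 248 in wt paraquat, against 53.3 in wt sham. Kdr and Tek rose in both genotypes (Tek at 68, 85 and 58 in KO paraquat, against 43, 56 and 40 in KO sham, and 49, 49 and 54 in wt paraquat, against 28, 31 and 31 in wt sham) and Pecam1 rose in wt, with Cdh5 at or below 36. The 8 fibroblast markers summed to 326 to 341 in KO paraquat, against 310 to 318 in KO sham, and to 372 to 435 in wt paraquat, against 317 to 373 in wt sham arrays, and Pdgfra rose in both genotypes. The 10 measured keratinocyte markers summed to 26764 to 28564 in KO paraquat, against 29570 to 31312 in KO sham, and to 26205 to 27225 in wt paraquat, against 30277 to 31839 in wt sham arrays. In KO 4 of the 10 fell (Krt14, Itgb4, Krt1 and Krt10), against 12.6% of all genes lower. In wt 5 fell (these and Sfn), against 14.3%, and 0 rose in either genotype. Krt1 had mean signals of 114 in KO paraquat, against 352 in KO sham, and 173 in wt paraquat, against 448 in wt sham. Itgb4 had 1217 against 1937 in KO, and 1031 against 2388 in wt, in the same order. The part of all these cell markers in the changes of the lipid genes was not tested.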

How the data were processed

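Labelled RNA of 12 keratinocyte cultures was hybridised to Affymetrix arrays. The authors' deposited table holds 1 intensity for each probe set and array. Per the submitters' processing notes it came from RMA in Affymetrix Expression Console 1.3.1.187. The deposited intensities are whole numbers from 3 to 17695 and were read as linear RMA signals. The plan of the re-analysis had assumed log2 values, but the deposited ones were read as linear, so log2 was taken here. Rounding makes the log2 of dim probe sets coarse. The genome build of the probe sets and any filter were not given in the sources used here. Background was not measured, and precision is limited by the number of arrays.

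The platform annotation, which can be old, gave 1 symbol to 23521 of 41345 probe sets, several to 1814 and none to 16010. Gene identifiers of 23328 matched a gene table, which changed 0 symbols. For 1082 genes with more than 1 probe set, the one with the highest mean stood for the gene. The 22180 genes were fitted without a filter, each group with its own mean, in limma 3.58.1 under R 4.3.3 (lmFit, then eBayes) on all 12 arrays. Tests were 2-sided, p-values were adjusted over all 22180 genes by Benjamini and Hochberg's method, and 0.05 was the threshold. Intervals are at 95%. The method was tested on simulated arrays with independent normal noise. Changes were set only in genes brighter than the median gene, so their detection in dim genes was not tested.

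The members, the list of further pathway genes and the marker lists were chosen with earlier results of these data known. All array values are given for members past the threshold in a comparison of genotypes or of responses and for the 3 of each role with the smallest p in a paraquat response. Up to 3 further pathway genes per role are named by smallest p among those past the threshold. Alternatives were another quantile normalization, median centring, a filter on dim genes, the mean over probe sets, 16 added before the log2, a variance trend, array weights, the replicate number as a block, a fit of the 6 arrays compared, leaving out each array, and leaving out both KO paraquat 3 and wt sham 2, which earlier work on these data had set apart. No technical batch was given in the labels used. Promoter windows came from RefSeq, build GRCm38.p6.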

Additional observations from a re-analysis of the deposited data

Results flagged for a closer look

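In 4 genes the paraquat response in KO differed from that in wt by limma's test of the difference itself, adjusted over all 22180 genes. Fads3 had a difference of 0.96 on the log2 scale (KO response 0.11, wt response -0.85), and that of Elovl6 was -1.29 (KO response -0.69, wt response 0.60). Both passed the threshold in all 21 alternatives. Acly had a difference of -0.57 (KO response -0.36, wt response 0.21), which passed in 8 of 21 alternatives. Lpin2 had a difference of -0.94 (KO response 1.93, wt response 2.87), which passed in 13 of 21.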

How the results depend on the processing

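Over the 30 genes and 5 comparisons, 3095 of the values under the alternatives kept direction and side of the threshold, 70 lost the threshold, 32 gained it, 63 uncalled values changed sign, and 0 called values reversed. Fitting only the 6 arrays compared gave 6 of the 30 genes between genotypes in sham (976 of all genes) and 0 under paraquat (3 of all genes), with fewer arrays to estimate the spread. Under paraquat a filter on dim genes, 16 added before the log2, a variance trend and array weights each gave 2 of the 30, adding Acsl4 to Lpin2, and 228, 231, 223 and 249 of all genes in that order, against 122. For the difference between responses the first 3 of these gave 894, 882 and 783 of all genes, against 508. Without wt sham 2 and KO paraquat 3 together, all genes numbered 1360 between genotypes in sham, 44 under paraquat and 268 in the difference. Leaving out 1 array gave 17 to 21 of the 30 genes in the KO response (4988 to 6216 of all genes), 17 to 21 in the wt response (5583 to 6470), 9 to 13 between genotypes in sham (1418 to 2363), 0 to 1 under paraquat (30 to 171) and 2 to 7 in the difference (250 to 700). Same-numbered arrays of different groups correlated at -0.0719 to 0.0902 in their deviations, with 0 of 12 pairs over 0.1, so the numbers were not taken to pair arrays. With the replicate number as a block, 20 of the 30 genes passed in the KO response, 19 in the wt response (Scd1 lost, adjusted p = 0.052 in limma), 11 in sham, 1 under paraquat and 3 in the difference (Acly lost, 0.0506). Rounded signals of 3 to 45 and the 3 arrays per group limit what could be detected for dim genes such as Acacb and Elovl3.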

Other observations

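Of 8 lipid droplet and lipolysis genes outside the set, 5 rose with paraquat in KO and 4 in wt by limma, where 14.5% of all genes rose in KO and 14.9% in wt. Lipe, hormone-sensitive lipase, had signals of 158, 163 and 128 in KO paraquat, 53, 53 and 59 in KO sham, 192, 137 and 185 in wt paraquat, and 60, 65 and 63 in wt sham arrays (log2 1.44 ± 0.13 in each genotype, SE, n = 3). Abhd5, the co-activator of triglyceride lipolysis, rose by 0.87 ± 0.09 in KO and 1.46 ± 0.09 in wt, and the responses differed by -0.59 ± 0.13 (adjusted p = 0.0314), a call that held in 4 of 12 fits without 1 array. Plin2, a droplet coat protein, had signals of 1257, 959 and 1045 in KO sham, against 1568, 2260 and 1625 in wt sham arrays (log2 -0.73 ± 0.15, 0.00635, and 0.0545 in the fit of the 6 arrays compared).

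Of 10 oxidation genes, 6 rose and 1 fell in KO (70%, against 27.1% of all genes called), and 3 rose in wt (30%, near the 29.2% of all genes called there). Slc25a20, the carnitine carrier of the mitochondrial membrane, rose by log2 0.98 ± 0.12 in KO (SE, adjusted p = 3.08e-05 in limma) and 1.03 ± 0.12 in wt (1.55e-05). Hadha, a subunit of the trifunctional oxidation enzyme, rose by 0.46 ± 0.09 and 0.60 ± 0.09 in that order. Acadm, the medium chain dehydrogenase, was higher in KO than in wt sham cells by 0.51 ± 0.09 (0.0033) and fell with paraquat in KO (-0.36 ± 0.09, 0.00969).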
